A study of Mus musculus and Homo sapiens with 12 samples.

Results

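The genes described here encode the proteins that write 5-methylcytosine (m5C) into RNA and the best known proteins that read it. The set was defined by gene name, with no measured value in the rule, though earlier results of these data were known when it was chosen. It held 8 writers (Nop2, Nsun2, Nsun3, Nsun4, Nsun5, Nsun6, Nsun7 and Trdmt1) and 2 readers (Alyref and Ybx1), in mouse and in human. All 10 were found by gene identifier among the 54446 genes of the mouse tables and all 10 human genes among the 58721 genes of the human tables. Mouse symbols are written Nsun2 and human symbols NSUN2.

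m5C is made by transfer of a methyl group to a cytosine of an RNA chain. The NSUN proteins and NOP2 form a family of RNA methyltransferases with different substrates, and TRDMT1, once named DNMT2 for its likeness to DNA methyltransferases, methylates transfer RNA. NSUN2 methylates many transfer RNAs and is the main known writer of m5C in mRNA. NOP2 and NSUN5 act on the RNA of the large cytosolic ribosomal subunit, NSUN3 and NSUN4 act in mitochondria on a transfer RNA and on ribosomal RNA, NSUN6 methylates transfer RNA and some mRNAs, and NSUN7 is the least studied member. ALYREF is an adaptor for mRNA export and YBX1 a cold-shock domain protein that packages mRNA, and both bind methylated cytosines.

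The study profiled chromatin-associated RNA (caRNA), the RNA that stays with the chromatin fraction, which is rich in unspliced transcripts. Wild-type mESC, embryonic stem cells labelled as from embryos and passaged on gelatin to remove feeder cells, and wild-type K562, an established human leukaemia line, each gave 3 Input libraries and 3 m5C-IP libraries, so that 12 libraries formed 4 groups. RNA was fragmented, fragments were pulled down with an m5C antibody (IP), and fragments without pull-down were sequenced as Input. The labels list puromycin in the K562 medium, whereas the study's methods name it only for modified K562 lines. No gene was knocked out or knocked down in these libraries. The study calls its replicates biological, but the labels do not name separate cultures, and p-values measure the spread between these libraries. Groups were taken from the sample titles. The antibody label goes against them, since it reads none on every mESC library and m5C on every K562 library, pulled down or not.

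Depth differed strongly between the groups. Gene counts ranged from 29007088 to 34752646 in mESC Input, from 473398 to 592324 in mESC IP, from 10477119 to 11865285 in K562 Input and from 93110 to 111286 in K562 IP. A floor of 3 counts stood for 27.0 to 32.2 CPM (gene counts scaled to a library total of 1e+06) in K562 IP and 5.06 to 6.34 CPM in mESC IP, so members with low levels were measured poorly after the pull-down; intervals and floors given here cover counting error only. The stem cell markers were present in mESC Input (7 of 8 above 1 CPM, summed level 1439 to 1456 CPM) and Sox2 was listed at 0. In K562 Input the same list summed to 391 to 404 CPM, with 2 of the 7 found above 1 CPM. Of the K562 markers, 6 of 8 were above 1 CPM in K562 Input (summed level 488 to 499 CPM). In mESC Input, 0 of the 5 found were above 1 CPM (summed level 1.66 to 2.21 CPM). In mESC IP all 5 were above 1 CPM (30.6 to 78.2 CPM). HBG2 and HBE1, fetal and embryonic globin genes, were listed at 0 in K562 Input. The 0 values of these markers and of Sox2 are not read as absence, since genes inside a same-strand gene were rarely counted (below). Whether this holds for these markers was not tested. Markers of feeder fibroblasts summed to 66.8 to 69.5 CPM in mESC Input, with 4 of 6 above 1 CPM and Col1a1 and Col1a2 the most abundant, and to 57.0 to 119 CPM in mESC IP. Their part in the results was not tested. K562 Input replicate 1 differed from replicates 2 and 3 by less than the sampling noise (chi-square per degree of freedom 0.912 and 0.918, p = 1 each), while replicates 2 and 3 differed (1.03, p = 0.00439). All 3 were kept, and a count with replicates 1 and 2 summed to 1 library is given below.

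The first question was how much caRNA each writer and reader gene had before pull-down. Ybx1, Nop2 and Nsun2 were the most abundant of the set in mESC, and NSUN6, YBX1 and NSUN2 in K562, on the scale of Input CPM per kb of merged exons. In mESC, Ybx1 stood at 84.2 ± 1.40 CPM per exon kb (SD, n = 3), Nop2 at 60.2 ± 2.23 and Nsun2 at 31.1 ± 0.490. The other 7 lay between 0.186 ± 0.0806 (Nsun7) and 7.54 ± 0.417 (Nsun6). Nsun6 and Alyref (7.54 ± 0.576) could not be ordered, since their libraries overlapped. All other neighbours in the mESC order (Nsun5, Nsun4, Nsun3, Trdmt1 and Nsun7 from higher to lower) had ranges that did not overlap.

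In K562, NSUN6 stood at 71.4 ± 3.02 CPM per exon kb (SD, n = 3), YBX1 at 31.3 ± 0.506 and NSUN2 at 22.5 ± 0.329. NSUN4 (13.4 ± 0.244) and ALYREF (11.01 ± 0.260) followed. NSUN5 (5.04 ± 0.293) and NSUN3 (4.74 ± 0.112) overlapped, and TRDMT1 and NSUN7 were lowest at 2.38 ± 0.142 and 0.0715 ± 0.0368. NSUN7 rested on 14 counts over the 3 K562 Input libraries.

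The length by which a level is divided mattered for this order. The deposited counts behaved as counts over whole gene spans, introns included, that used the strand: of protein-coding genes lying inside another gene on the same strand, 1.31% had any Input count in mESC and 12.9% in K562, against 77.1% and 72.9% of those inside an opposite-strand gene alone. Per kb of gene span, Nop2 (13.0 ± 0.482 CPM per span kb) and Ybx1 (12.8 ± 0.213) overlapped at the top in mESC, Alyref (4.64 ± 0.354) came next, and Nsun2 fell to rank 5 (1.75 ± 0.0275). In K562 the span scale put YBX1 first (4.97 ± 0.0803), ALYREF next (4.65 ± 0.110), and NSUN6 at rank 6 (2.17 ± 0.0920). Human NSUN6 spans 114 kb with 3463 bp of exon, and mouse Nsun2 spans 102 kb of which the coding range takes 21756 bp. Nsun3, Trdmt1 and Nsun7 kept ranks 8, 9 and 10 in mESC on both scales, and NSUN3, TRDMT1 and NSUN7 ranks 7, 8 and 9 in K562.

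**Figure D1:**
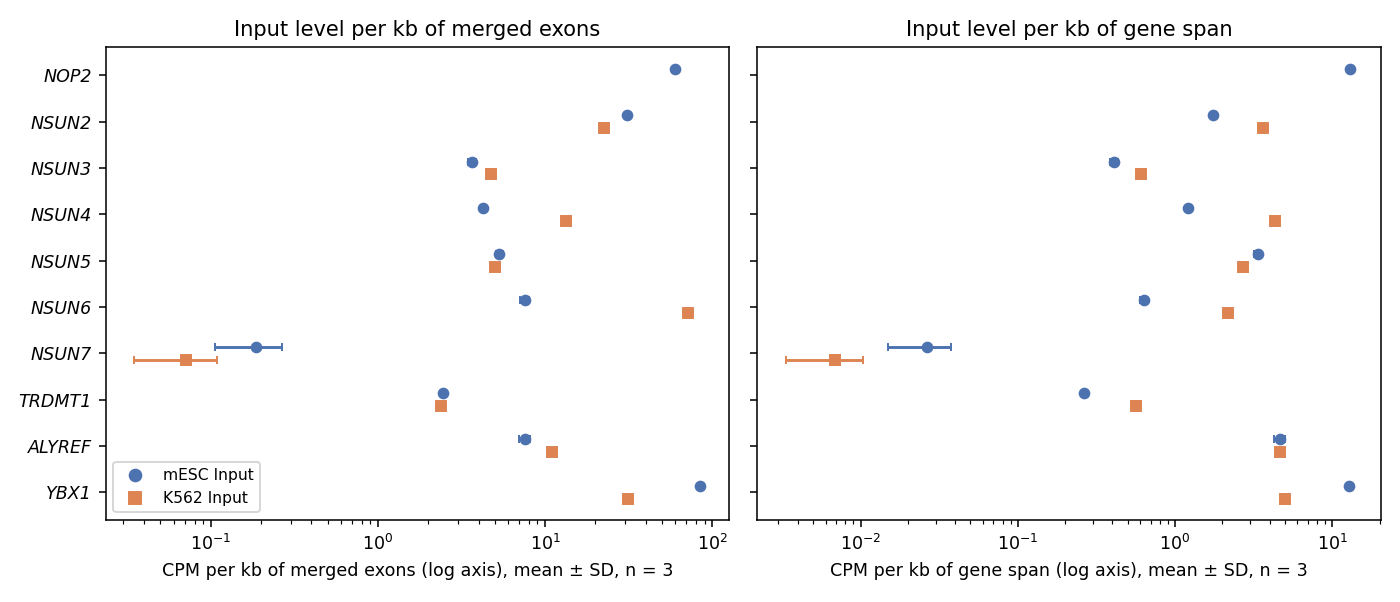
Input level of each writer and reader gene in CPM per kb of merged exons (left) and per kb of gene span (right), on log axes, as mean ± SD of 3 libraries for mESC (circles) and K562 (squares). NSUN6 in K562 is at 71.4 CPM per exon kb and 2.17 CPM per span kb, and NOP2 has no K562 point because it was listed at 0.

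Human NOP2 (ENSG00000111641.11, chr12:6556863-6568691, minus strand, hg38) was listed at 0 counts in all 6 K562 libraries. On the same strand, an annotated readthrough gene (ENSG00000285238.2, chr12:6556886-6607367) covers all but 23 of the 11829 bp of NOP2. That gene itself had 36, 30 and 33 Input counts, and CHD4, the chromatin remodeller gene it runs into, had 28, 40 and 45. Among human protein-coding genes with under 1% of their span free of other genes on their strand, 77.2% of 1096 had no Input count, against 10.96% of the 18735 others. NOP2 therefore has no K562 value here, and its 0 is no measurement of the transcript. Mouse Nop2 (chr6:125131909-125144753, GRCm38) has its whole span free of other genes on its strand.

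**Figure D2:**
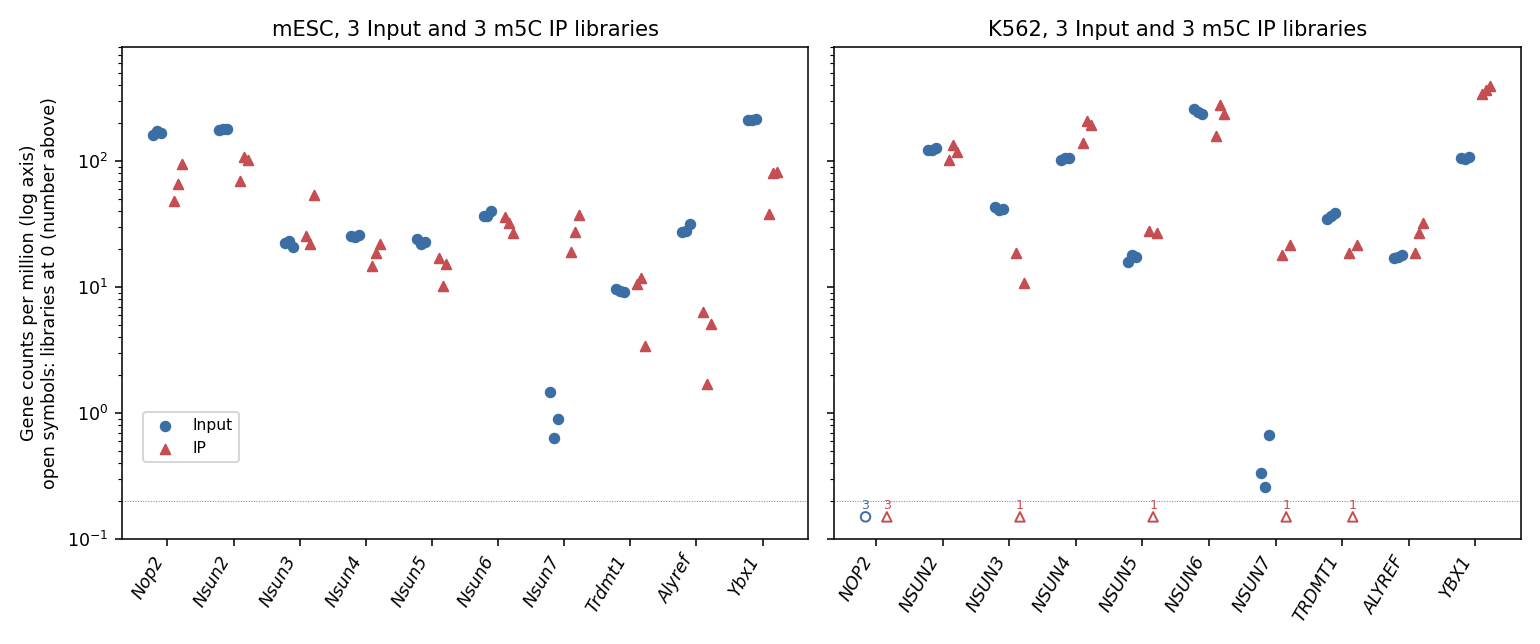
CPM of the writer and reader genes in each of the 12 libraries on a log axis, Input as circles and m5C IP as triangles, with mESC on the left and K562 on the right; open symbols under the dotted line stand for libraries at 0 with their number. Ybx1 falls from 211 to 217 CPM in mESC Input to 38.0 to 82.7 CPM in IP, and YBX1 rises from 105 to 108 CPM in K562 Input to 343 to 397 CPM in IP.

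The second question was which of these transcripts were over- or under-represented after the m5C pull-down. In mESC, 8 of the 10 were lower in IP than in Input, Nsun7 was higher and Nsun3 did not pass (edgeR quasi-likelihood test over 20244 genes, adjusted p under 0.05 as the threshold). Of all genes tested, 42.1% were called lower and 39.9% higher, and the median log2 IP/Input was -0.17 for all genes and -1.55 for the 10. The background holds many genes that the filter on low counts kept only because their IP libraries were high: 5303 of the 20244 did not reach its limit of 0.676 CPM in all 3 Input libraries, Nsun7 among them, and 4983 of those were called higher. Among the other 14941 genes, 57.0% were called lower and 20.7% higher, with a median of -1.07. The values depend on the scaling too. Scaling by library size alone, in place of TMM, moved the median of all genes from -0.17 to 0.80, with 24% called lower and 49.1% higher, and left 5 of the 10 called (4 lower and Nsun7 higher). CPM values below are not TMM-scaled, and a log2 value may therefore show a larger fall than the CPM beside it.

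Among the mESC writers, Nop2 and Nsun2 had the highest counts. Nop2 had 160, 173 and 168 CPM in Input and 48.6, 66.3 and 94.5 CPM in IP, every IP library below every Input library. Its log2 IP/Input was -2.20 ± 0.16 (SE, adjusted p = 2.7e-09 by edgeR), or -2.03 relative to the median of all genes. Nsun2 (chr13:69533746-69635780) had 175, 179 and 181 CPM in Input and 69.7, 107 and 103 CPM in IP. Its log2 IP/Input was -1.89 ± 0.13 (edgeR adjusted p = 1.8e-09), also with no overlap. Both stayed lower with library size scaling alone, at -1.23 and -0.91.

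The other called writers lay closer to the middle of all genes. Nsun4, the mitochondrial ribosomal RNA methyltransferase gene, had 25.1 to 25.8 CPM in Input and 14.8 to 21.9 CPM in IP (log2 -1.41 ± 0.26, edgeR adjusted p = 0.00011). Nsun5 had 21.9 to 24.1 CPM in Input and 10.2 to 16.9 CPM in IP (log2 -1.70 ± 0.30). Nsun6 had 36.5 to 40.2 CPM in Input and 27.0 to 35.9 CPM in IP (log2 -1.24 ± 0.23). None of these IP ranges overlapped with Input, but with library size scaling alone the log2 values were -0.44, -0.72 and -0.27 and none of the 3 passed.

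Trdmt1, Nsun3 and Nsun7 stood apart from the other writers. Trdmt1 had 9.65, 9.38 and 9.15 CPM in Input and 10.6, 11.9 and 3.38 CPM in IP, which overlap. Its call as lower (log2 -1.12 ± 0.40, edgeR adjusted p = 0.018) was lost with library size scaling alone (-0.15), without IP replicate 3 (-0.67, adjusted p = 0.15) and without any of the 3 Input libraries (adjusted p 0.066 to 0.069). Nsun3 had 22.6, 23.4 and 20.8 CPM in Input and 25.3, 22.1 and 54.0 CPM in IP, with IP replicate 3 far above the other libraries. Its log2 IP/Input was -0.34 ± 0.27 (edgeR adjusted p = 0.24), and without that library -0.86 (adjusted p = 0.018). Nsun3 was also called lower with a correction for GC content (-0.77, adjusted p = 0.013, median of all genes -0.80). The same held with no filter on low counts (-0.78, adjusted p = 0.0031, median of all genes 0.60).

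Nsun7 was the lowest writer in Input and the only member higher in mESC IP. It had 43, 21 and 31 Input counts (1.48, 0.636 and 0.892 CPM) and 9, 16 and 22 IP counts (19.01, 27.2 and 37.1 CPM). The log2 IP/Input was 3.83 ± 0.45 (edgeR adjusted p = 9.0e-07), and the pooled ratio of CPM was 28.96 (exact 95% interval 19.97 to 41.5). Since 1 of its Input libraries lay under the filter limit of 0.676 CPM, Nsun7 was tested only through its IP libraries, which selects for a higher IP level, so its call and its place among all genes are given as a description. Among 3666 genes with 1 to 5 CPM in mESC Input, of which 3632 reached the limit in Input, the median log2 IP/Input was 1.19, with the upper quartile at 2.73. The mean Input of Nsun7, 1.003 CPM, lay at the lower edge of that range. Among the 5677 genes below 1 CPM, of which 408 reached the limit in Input, the median was 4.93, with quartiles of 3.6 and 6.12.

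Both reader genes fell in mESC IP. Alyref (chr11:120592121-120598365) had 27.6, 27.8 and 31.5 CPM in Input and 6.34, 1.70 and 5.06 CPM in IP, from 3, 1 and 3 counts. Its log2 IP/Input of -3.75 ± 0.43 (edgeR adjusted p = 6.8e-07) lay at the 1.67 percentile of all genes tested, and the pooled CPM ratio of IP to Input was 0.146 (exact 95% interval 0.0585 to 0.301). Ybx1 (chr4:119277981-119294604) had 212, 211 and 217 CPM in Input and 38.0, 79.9 and 82.7 CPM in IP. Its log2 IP/Input was -2.60 ± 0.15 (edgeR adjusted p = 2.1e-10). Replicate 1 of the IP libraries was the lowest for Ybx1, Nop2 and Nsun2, and both readers stayed lower in each fit that left out a library (Alyref -4.02 to -3.31, Ybx1 -2.74 to -2.32). Over the 10 members, the CPM ranges of IP and Input did not overlap for 8, beside 75.3% of all genes tested.

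In K562 the members did not move together. Of the 8 that could be tested, YBX1 and NSUN4 were higher in IP, NSUN3 and TRDMT1 were lower, and NSUN2, NSUN5, NSUN6 and ALYREF did not pass (edgeR over 14522 genes, of which 15% were called higher and 16.8% lower). All 8 reached the filter limit of 1.89 CPM in every Input library, and among the 13266 genes that did so 8.89% were called higher and 18.4% lower. With no filter on low counts the median of all genes moved from -0.17 to -0.71 and 6 members were called: NSUN2 (-0.62, adjusted p = 0.030), NSUN6 (-0.70, adjusted p = 0.00019) and NSUN7 (4.33, adjusted p = 0.0022) were added and NSUN4 was lost. In that setting 4202 of 31714 genes were called higher and 4035 lower. In the main fit the median log2 IP/Input was -0.16 for the 8 and -0.17 for all genes. NOP2 had no counts, and NSUN7, with 0, 2 and 2 IP counts, was left out by the filter on low counts.

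YBX1 (chr1:42682418-42703805, hg38) had 107, 105 and 108 CPM in K562 Input and 343, 368 and 397 CPM in IP, from 37, 41 and 37 counts. The log2 IP/Input was 1.58 ± 0.16 (edgeR adjusted p = 3.2e-17), and every fit that left out a library gave 1.53 to 1.62. Among the 2699 genes with 100 to 500 CPM in K562 Input, the median was -0.57, the upper quartile -0.26, and 2.93% were called higher. ALYREF had 17.0, 17.4 and 17.8 CPM in Input and 18.5, 27.0 and 32.2 CPM in IP, on 8 IP counts in all. Every IP library of ALYREF lay above the Input libraries, but the log2 value of 0.34 ± 0.56 did not pass (edgeR adjusted p = 0.70), and the exact 95% interval of the CPM ratio ran from 0.632 to 2.92.

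NSUN4 (chr1:46340789-46365152) was the writer called higher in K562. It had 103, 106 and 106 CPM in Input and 139, 207 and 193 CPM in IP, with no overlap. The log2 IP/Input was 0.56 ± 0.20 (edgeR adjusted p = 0.026), and the call was lost without IP replicate 2 (0.42, adjusted p = 0.25), without IP replicate 3 (0.51, adjusted p = 0.12), with no filter on low counts (0.22, adjusted p = 0.53) and with a correction for GC content (0.34, adjusted p = 0.19).

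NSUN3 and TRDMT1 were the members lower in K562 IP, on very few IP reads. NSUN3 (chr3:94062980-94131832) had 510, 473 and 439 Input counts and 2, 0 and 1 IP counts. Its log2 IP/Input was -2.34 ± 0.62 (edgeR adjusted p = 0.0012), and the pooled CPM ratio was 0.229 (exact 95% interval 0.0471 to 0.670). The value was -1.71 without IP replicate 2 (adjusted p = 0.045) and -3.32 without IP replicate 1 (adjusted p = 0.0022). TRDMT1 (chr10:17137336-17202054) had 410, 425 and 408 Input counts and 2, 0 and 2 IP counts. Its log2 value was -1.73 ± 0.59 (edgeR adjusted p = 0.015), with a pooled ratio of 0.349 (0.0950 to 0.896). The TRDMT1 call was lost without IP replicate 2 (-1.10, adjusted p = 0.20), with DESeq2 (adjusted p = 0.082), with library size scaling alone (adjusted p = 0.053) and with the GC correction (adjusted p = 0.070).

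NSUN2, the main mRNA writer, had 123, 123 and 126 CPM in K562 Input and 102, 135 and 118 CPM in IP, which overlap (log2 -0.28 ± 0.23, edgeR adjusted p = 0.37). NSUN6 had 258, 246 and 237 CPM in Input and 158, 279 and 236 CPM in IP, with IP replicate 1 the lowest (log2 -0.36 ± 0.17, edgeR adjusted p = 0.11). NSUN5 had 189, 206 and 181 Input counts and 3, 3 and 0 IP counts (log2 -0.04 ± 0.63). Of the 8 members tested, IP and Input CPM did not overlap for 5 (NSUN3, NSUN4, TRDMT1, ALYREF and YBX1), beside 46.8% of all genes tested.

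**Figure D3:**
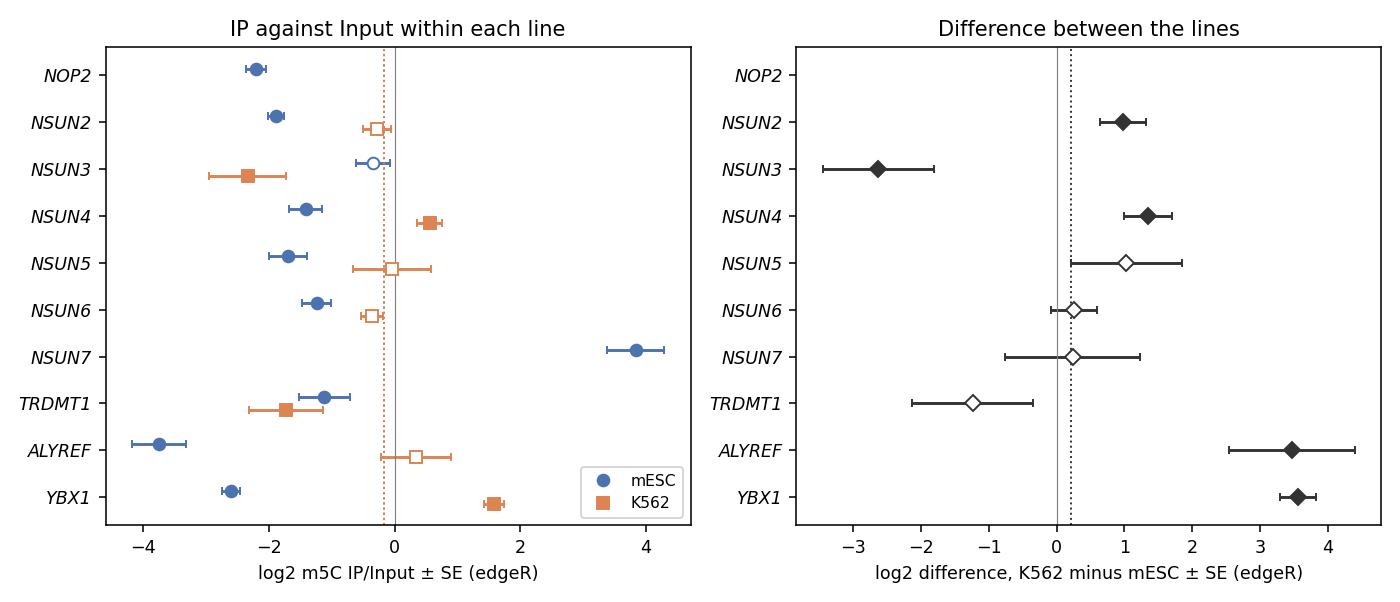
log2 m5C IP/Input ± SE from edgeR for the writer and reader genes in mESC (circles) and K562 (squares) on the left, and the K562 minus mESC difference ± SE on the right; filled symbols passed an adjusted p of 0.05 and dotted lines are the medians of all genes tested. YBX1 lies at -2.60 in mESC and 1.58 in K562. Its difference of 3.55, among 5 that passed, comes from a joint fit scaled anew and is not those values subtracted.

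The difference of log2 IP/Input between the lines was then tested directly, as an interaction term (line by pull-down) over 13531 genes that share a symbol, species and line being confounded. Of 9 members tested, 4 were called higher in K562 (YBX1, ALYREF, NSUN4 and NSUN2), NSUN3 was called lower, and NSUN5, NSUN6, NSUN7 and TRDMT1 did not pass. Of all genes, 17.8% were called higher and 15.4% lower, with a median of 0.21 beside 0.98 for the 9. The joint fit had its own filter and TMM scaling over the shared genes. Its differences therefore do not equal the within-line values subtracted.

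Both readers differed between the lines by a similar amount. The difference was 3.55 ± 0.27 for YBX1 (edgeR adjusted p = 3.1e-12) and 3.46 ± 0.93 for ALYREF (adjusted p = 0.0042), at the 94.1 and 93.7 percentiles of all genes. YBX1 lay between 3.01 and 3.73 and ALYREF between 2.94 and 3.78 in fits that left out 1 library. The ALYREF difference rests on 7 mESC and 8 K562 IP counts.

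Among the writers, NSUN4 differed by 1.35 ± 0.35 (edgeR adjusted p = 0.0034), NSUN2 by 0.98 ± 0.34 (adjusted p = 0.024) and NSUN3 by -2.62 ± 0.82 (adjusted p = 0.013). These 3 calls were less stable. NSUN2 and NSUN4 lost theirs with RLE scaling (0.54 and 0.90), with the GC correction (0.84 and 0.69) and without mESC Input replicate 1, mESC Input replicate 2 or K562 Input replicate 3 (0.43 to 0.45 and 0.80 to 0.81). In those 3 fits the median of all genes moved from 0.21 to between -0.34 and -0.32, and relative to that median the values were 0.77 to 0.78 for NSUN2 and 1.13 to 1.14 for NSUN4, beside 0.77 and 1.14 with all libraries. NSUN2 also lost its call with DESeq2 (0.54), with library size scaling alone (0.66) and without K562 IP replicate 2 or 3 (0.87 and 0.98). NSUN3 lost its call without K562 IP replicate 2 (-1.99, adjusted p = 0.10), the library in which it had 0 counts. The differences of TRDMT1 (-1.24 ± 0.89) and NSUN5 (1.03 ± 0.82) were smaller than 2 standard errors, and those of NSUN6 (0.26 ± 0.34) and NSUN7 (0.24 ± 0.99) turned negative under RLE scaling, DESeq2, the GC correction and library size scaling alone.

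The log2 IP/Input of a gene moved with its Input level, in both lines, and the members are therefore given beside genes of their own level. Across genes, Spearman's rho between Input CPM and log2 IP/Input was -0.80 over 20244 mESC genes and -0.48 over 14522 K562 genes; Input is part of both quantities, genes share the same libraries, and the filter adds genes that are low in Input only where IP is high. Among genes that reached the filter limit in every Input library, rho was -0.55 over 14941 mESC genes and -0.32 over 13266 K562 genes. Over the 10 mESC members rho was -0.78, a set that includes Nsun7, tested only through IP, and so compares with the -0.80 above. Over 8 members it was 0 in K562. In mESC, genes with 20 to 100 CPM had a median of -1.42 and quartiles of -2.03 and -0.77. Nsun4, Nsun5 and Nsun6 lay between these quartiles, Nsun3 above and Alyref below them. Genes with 100 to 500 CPM had a median of -1.89 and quartiles of -2.25 and -1.43, with Nsun2 and Nop2 inside and Ybx1 below. In K562, genes with 20 to 100 CPM had quartiles of -0.76 and 0.15, and NSUN3 and TRDMT1 lay below them; NSUN2 and NSUN6 lay inside the quartiles of genes with 100 to 500 CPM (-0.86 and -0.26), and NSUN4 and YBX1 above them.

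**Figure D4:**
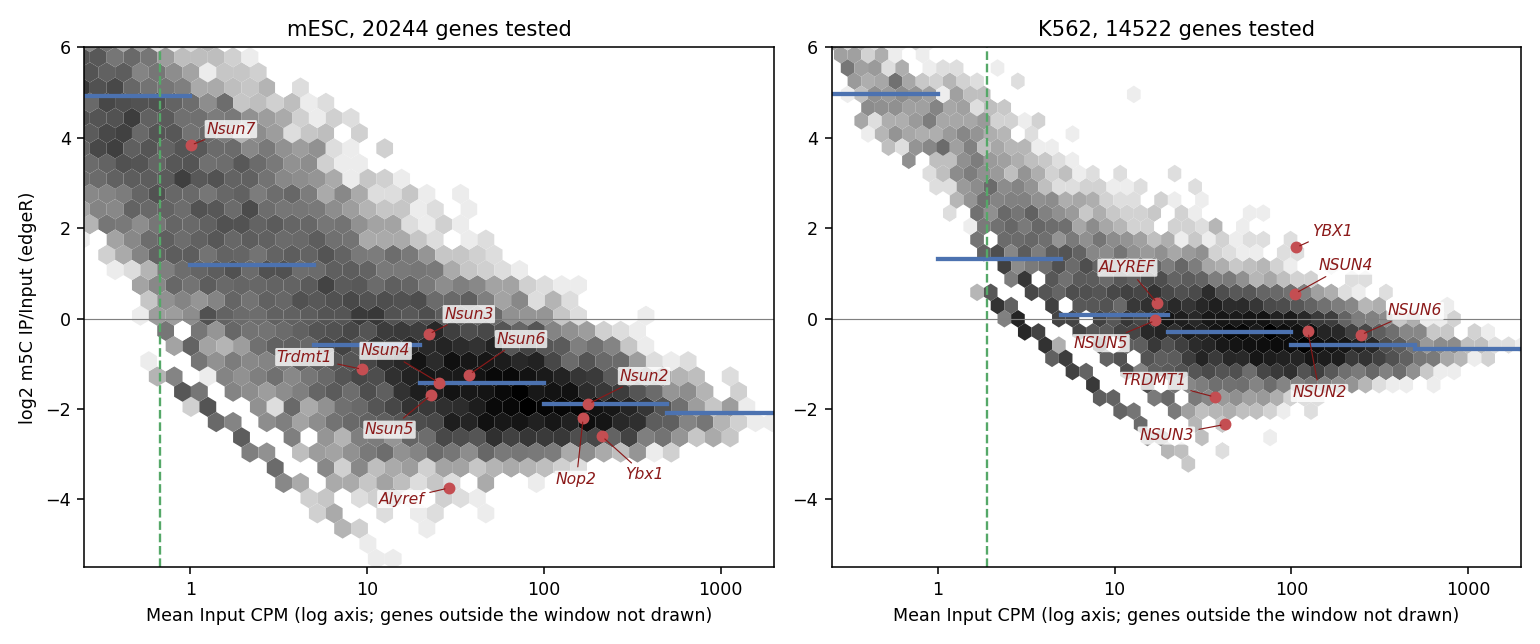
log2 m5C IP/Input against mean Input CPM (log axis) for 20244 mESC genes and 14522 K562 genes, darker cells holding more genes, with writer and reader genes as red points, the median of each range of Input CPM as a blue line and the filter limit (0.676 and 1.89 CPM) as a dashed green line, left of which genes were tested only through IP. From the range of 5 to 20 CPM upward, medians fall from -0.59 to -2.10 in mESC and from 0.09 to -0.67 in K562, and Alyref, NSUN3, TRDMT1 and YBX1 lie far from the line at their level.

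The Input level of each member was compared between the lines with gene length as an offset, over 12359 genes. With merged exon length, 5 of 9 members were called higher in K562, 3 lower and NSUN5 did not pass; of all genes, 45.2% were called higher and 48.5% lower. With gene span in place of exon length, 6 were called higher and 2 lower, beside 44.9% and 48% of all genes. NSUN6 had the largest difference of the set with exon length, at 3.47 ± 0.03 (log2, edgeR adjusted p = 5.8e-59), and 2.19 with gene span. NSUN4 was higher by 1.88 ± 0.04 (2.24 with gene span), NSUN3 by 0.60 ± 0.06 (0.98) and ALYREF by 0.77 ± 0.08 (0.41). YBX1 was lower in K562 by both lengths (-1.20 ± 0.03 and -0.96), as was NSUN7 (-1.15 ± 0.44 and -1.51), on 95 and 14 Input counts. The NSUN7 call was lost with DESeq2 (adjusted p = 0.055) and without mESC Input replicate 1 (-0.79, adjusted p = 0.098), K562 Input replicate 1 (-1.01, adjusted p = 0.061) or K562 Input replicate 2 (-0.89, adjusted p = 0.091). NSUN2 changed sign with the length used, from -0.24 ± 0.03 with exons to 1.47 with the span, and TRDMT1 moved from 0.18 ± 0.07 to 1.52. The TRDMT1 call was lost without K562 Input replicate 3 (0.14, adjusted p = 0.11) and with no filter on low counts (0.16, adjusted p = 0.051). In bulk samples of this kind, fewer cells with a transcript and less of it per cell cannot be told apart, nor can the cell line be told apart from the species.

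Genes that work beside the writers and readers were followed as 7 lists of 67 genes in all. In mESC IP, 60 of the 65 tested were lower than in Input, 2 were higher and 3 did not pass, with a median log2 of -1.999. In K562, 15 of 63 were lower, 4 higher and 44 did not pass, with a median of -0.42. At 20 to 500 CPM the mESC shares lay near those of all genes at the same Input level. Of the 65, 27 had 20 to 100 CPM in mESC Input and 24 of those were lower, beside 82.5% of all genes at that level. Another 23 had 100 to 500 CPM and all 23 were lower, beside 97.6% of all genes. Below 20 CPM the list share was higher than that of all genes. There, 10 of 12 were lower, beside 42.3% of all genes at 5 to 20 CPM and 12.1% at 1 to 5 CPM. In K562, 4 of 28 at 20 to 100 CPM and 9 of 19 at 100 to 500 CPM were lower, beside 14.1% and 55.5% of all genes. Below 20 CPM, 0 of 14 were lower in K562, beside 1.36% of all genes at 5 to 20 CPM.

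Partners of the readers changed as follows. All 12 tested genes of the TREX complex and mRNA export, in which ALYREF works, were lower in mESC IP (median -2.28). Examples were Nxt1, a cofactor of the export receptor (log2 -3.25 ± 0.70), Sarnp (-2.68 ± 0.13) and Poldip3 (-2.46 ± 0.20). Nxt1 had a mean of 2.11 CPM in mESC IP, below the 5.06 to 6.34 CPM of 3 counts. In K562, THOC1 (-1.44 ± 0.30) and THOC2 (-0.81 ± 0.17), subunits of the THO complex, were lower and the other 10 did not pass. Of 9 genes for mRNP proteins found with YBX1, all were lower in mESC (median -1.90), among them Caprin1 (-2.59 ± 0.10), Elavl1 (-2.55 ± 0.11) and Lin28b (-2.09 ± 0.18). In K562, 2 of the 9 were higher and 3 lower. PABPC1, the cytoplasmic poly(A)-binding protein gene, was higher by 1.81 ± 0.16 (edgeR adjusted p = 6.0e-22), while LIN28B (-1.05 ± 0.21) and IGF2BP2 (-1.02 ± 0.13), which encode RNA-binding proteins, were lower. The other members called, named after their values were seen, were HNRNPU (0.83 ± 0.14) and IGF2BP3 (-0.86 ± 0.13). Of the other m5C-binding proteins, 7 of 8 were lower in mESC, such as Rad52 (-2.74 ± 0.28), Ybx3 (-2.38 ± 0.12) and Srsf2 (-2.23 ± 0.18), and 4 of 7 in K562, such as RAD52 (-2.11 ± 0.55), FMR1 (-1.24 ± 0.44) and MBD5 (-1.14 ± 0.22). In K562 IP, RAD52 (13.3 CPM) and FMR1 (24.7 CPM) had means below the 27.0 to 32.2 CPM of 3 counts.

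Partners and relatives of the writers gave the following values. Of 15 genes for ribosomal RNA methylation, 14 were lower in mESC (median -1.90), led by Mterf4, the partner of Nsun4 (-3.29 ± 0.44), Dimt1 (-2.77 ± 0.17) and Tfb1m (-2.38 ± 0.24). In K562, TRMT112, an activator of several methyltransferases, was higher (2.85 ± 0.82, edgeR adjusted p = 0.0032) and the other 14 did not pass. TRMT112 had means of 2.26 CPM in Input and 19.3 CPM in IP, the latter below the 27.0 to 32.2 CPM of 3 counts. Of K562 genes with 1 to 5 CPM in Input, 33.2% were called higher. Of 13 other transfer RNA methyltransferase genes, 12 were lower in mESC (median -1.79), with Trmt5 (-3.88 ± 0.56), Trmt2a (-2.86 ± 0.31) and Trmt6 (-2.67 ± 0.27) lowest. In mESC IP, Mterf4 (3.53 CPM) and Trmt5 (1.70 CPM) had means below the 5.06 to 6.34 CPM of 3 counts. In K562 TRMT44 was lower (-0.85 ± 0.30) and 12 did not pass. Of the 4 m5C oxidases, Alkbh1 (-2.68 ± 0.13), Tet2 (-2.46 ± 0.10) and Tet1 (-1.999 ± 0.06) were lower in mESC. Tet3, named after its value was seen, was higher (0.90 ± 0.19). In K562 TET2 (-1.11 ± 0.27), TET1 (-0.49 ± 0.18) and TET3 (-0.43 ± 0.16) were lower. Of the DNA cytosine methyltransferases, Dnmt3b (-1.98 ± 0.17), Dnmt1 (-1.77 ± 0.08) and Dnmt3l (-1.23 ± 0.19) were lower in mESC, and Dnmt3a, named after its value was seen, was higher (0.82 ± 0.15). In K562, DNMT3A was higher (0.91 ± 0.32) and DNMT3B (-0.80 ± 0.22) and DNMT1 (-0.42 ± 0.17) were lower.

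Peaks were deposited for the mESC IP libraries. On the gene strand, Nsun2 and Nsun3 each held 1 peak, both in replicate 2, and no member held a peak in more than 1 replicate. Of all genes tested in mESC, 22.9% held a peak on their strand in any replicate and 2.57% in all 3. On the opposite strand, Nsun2 held 1 peak in replicate 2 and Trdmt1 1 peak in replicate 1, beside 30.1% of all genes.

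The Nsun2 sense peak (chr13:69590312-69590461, plus strand, GRCm38) lay in an intron 56.6 kb from the gene start and before the first coding exon. The opposite-strand peak (chr13:69619357-69619506, minus strand) crossed a coding-region exon of Nsun2 at 85.7 kb. The Nsun3 peak (chr16:62747843-62747992, minus strand) lay in an intron 38.9 kb from the start, and 99.3% of its bases were repeat-masked, beside a median of 40.7% over 32046 peaks of 150 bp. The Trdmt1 peak (chr2:13510425-13510574) lay opposite the last exon, past the coding range, 34.2 kb from the start. The 3 peaks at Nsun2 and Nsun3 are printed because they are, with the Trdmt1 peak, the regions of these genes that the deposited peak lists hold on either strand. They are given from the peak strand, 5′ to 3′, with the letters CTCCA and CNGGG, which have been described at sites of NSUN6 and NSUN2, in capitals.

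Nsun2 gene-strand peak: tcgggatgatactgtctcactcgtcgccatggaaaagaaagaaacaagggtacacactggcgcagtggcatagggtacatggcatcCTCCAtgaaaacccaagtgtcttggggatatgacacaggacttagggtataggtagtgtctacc
Nsun2 opposite-strand peak: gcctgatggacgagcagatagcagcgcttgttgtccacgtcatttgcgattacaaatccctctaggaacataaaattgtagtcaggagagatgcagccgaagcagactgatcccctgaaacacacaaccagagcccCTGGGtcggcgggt
Nsun3 gene-strand peak: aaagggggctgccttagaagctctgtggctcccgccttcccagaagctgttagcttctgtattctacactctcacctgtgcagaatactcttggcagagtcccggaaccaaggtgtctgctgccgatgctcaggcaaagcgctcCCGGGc

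CTCCA was found 1 time in the Nsun2 gene-strand peak and in neither of the others, and CNGGG 1 time in the opposite-strand peak and 1 time in the Nsun3 peak. Searched on the peak strand alone, 20.3% of all peaks of this width held CTCCA and 52.2% held CNGGG. The searched runs share no overlap here, since no printed peak held both. A match is a run of letters and says nothing about methylation at that base. The peaks had 49.3%, 52.7% and 57.3% GC, beside a median of 50.7% over all peaks.

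**Figure D5:**
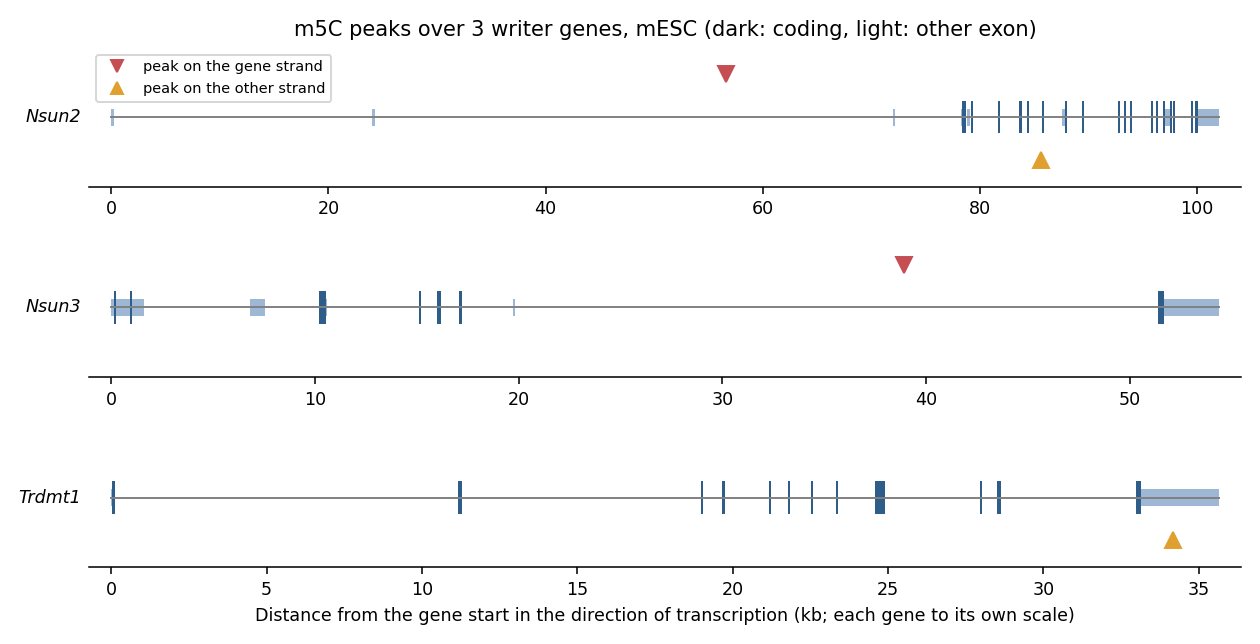
Gene models of Nsun2, Nsun3 and Trdmt1 by distance from the gene start in kb, with coding exons dark, other exons light and the m5C peaks of the 3 mESC IP libraries as triangles (pointing down on the gene strand, up on the other strand). The gene-strand peaks lie in introns at 56.6 kb in Nsun2 and 38.9 kb in Nsun3.

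Some members share sequence with copies elsewhere, which can divide their reads. Human NSUN5 (chr7:73302516-73308826, minus strand) has the transcribed pseudogenes NSUN5P1 and NSUN5P2 on the same chromosome, whose best alignments to its coding segments were 95.3% and 95.2% identical. A stretch of 60 bases from a coding exon of 211 bp is printed to show how few bases separate the 3 genes, with the positions at which either copy differs from NSUN5 in capitals. They lie at chr7:73303977-73304036 (minus strand), chr7:75415981-75416040 (plus strand) and chr7:72949043-72949102 (minus strand) of hg38.

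NSUN5: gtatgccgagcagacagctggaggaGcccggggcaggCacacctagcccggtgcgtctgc
NSUN5P1: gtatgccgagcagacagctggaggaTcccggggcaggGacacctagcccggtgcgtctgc
NSUN5P2: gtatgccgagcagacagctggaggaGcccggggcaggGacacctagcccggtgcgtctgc

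NSUN5P1 differed from NSUN5 at 2 of these bases and NSUN5P2 at 1. NSUN5 had 576 K562 Input counts over the 3 libraries, fewer than NSUN5P2 (1040) and NSUN5P1 (1111), and 6, 17 and 14 IP counts. Reads that fit several of the 3 cannot be assigned, so these counts are uncertain. The 10 annotated pseudogenes of YBX1 held 112 K562 Input and 9 IP counts together, against 3603 and 115 for YBX1. In mouse, Ybx1-ps2 held 46 Input and 11 IP counts against 20652 and 114 for Ybx1, and Alyref2 held 36 and 1 against 2813 and 7 for Alyref.

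The genes whose level moved most like a member were found over all 12 libraries as a description, by Pearson's correlation of log2(CPM + 0.5) among 7039 genes with a mean of at least 5 CPM in each group; libraries of a group share line and pull-down, so the values mostly reflect 4 group levels. YBX1 was most like HSPA5, an endoplasmic reticulum chaperone gene (r = 0.984), EIF1, a translation initiation factor gene (0.981), and SRRT (0.960). NSUN2 was most like MRPS30, a mitochondrial ribosomal protein gene (0.976), PSMD6, a proteasome subunit gene (0.954), and FEM1A (0.947). NOP2 had no such genes because it was listed at 0 in K562.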

How the data were processed

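The authors deposited raw counts per gene for each of 12 libraries, and for each mESC IP library a list of m5C peaks as positions with a strand, called per library. Per the labels' processing notes the tools were Trimmomatic 0.39, HISAT2 2.1.0, SAMtools 1.16.1 and MACS2 2, with builds mm10 and hg38; the kit was stranded. Spike-in and IgG reads were not used here. Summary lines (19.0% to 71.7% of records) stayed out of library sizes and tests. Symbols, spans and exons came from GENCODE releases other than those the study names (99.9% of mouse and 99.1% of human identifiers matched), and bases from GRCm38 and hg38.

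Counts were tested with edgeR 4.0.16 (glmQLFit, glmQLFTest) in R 4.3.3 after filterByExpr and TMM scaling, with p-values adjusted by Benjamini-Hochberg over all genes tested, IP against Input within each line and as an interaction over shared symbols; of 16425 such symbols, 2172 with no counts in 1 line, NOP2 among them, were dropped. Input was compared between lines with the logarithm of merged exon length as an offset. The counts were found to cover whole spans with strand after that choice, so gene span values are printed beside it. SE is the absolute log2 value over the square root of F. Alternatives were DESeq2 1.42.0, library size and RLE scaling, no filter, a GC correction, a replicate block, each library left out, and, chosen after seeing the data, K562 Input replicates 1 and 2 summed. Intervals of CPM ratios are exact (Clopper-Pearson, 95%) without TMM, and sequences were aligned with blastn 2.17.0. Peaks were assigned to genes at 1 bp of overlap. The fits were tested on simulated data with known changes.

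The members and lists were chosen with earlier results of these data known. All 10 members are named, with up to 3 genes per list and line (the largest log2 IP/Input among those called, at a mean CPM of 5 or more) and the 3 genes most like Nsun2, Nop2 and Ybx1.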

Additional observations from a re-analysis of the deposited data

Results flagged for a closer look

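For 5 members the log2 IP/Input differed between K562 and mESC in the interaction test, and these are collected here as values. YBX1 differed by 3.55 and ALYREF by 3.46, NSUN4 by 1.35, NSUN2 by 0.98 and NSUN3 by -2.62. Of these, YBX1 had every IP library above every Input library in K562 and every IP library below in mESC, and so did ALYREF and NSUN4. NSUN2 and NSUN3 each overlapped in 1 of the lines. The cell line cannot be told apart from the species or from the depth of the IP libraries.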

How the results depend on the processing

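Of the counts of members called, that of mESC fell from 9 to 5 with library size scaling alone, beside 16591 and 14807 of all 20244 genes. The K562 count of members fell from 4 to 2 with the GC correction and rose to 6 with no filter on low counts. It ranged from 2 to 4 when a library was left out, with the lowest without IP replicate 2. Of all 14522 genes, 4627 were called in the main fit, 4512 with the GC correction and 3562 without IP replicate 2. With no filter, 8237 of 31714 genes were called. The count of members for the difference between lines fell from 5 to 3 with RLE scaling and with the GC correction. It ranged from 3 to 5 when a library was left out, beside 3406 to 4793 of all genes. Of all 13531 genes, 4498 were called in the main fit, 4179 with RLE scaling and 4079 with the GC correction. The members with a peak fell from 2 to 0 when a peak was required in 2 or in 3 replicates. Of all genes tested in mESC, 22.9% held a gene-strand peak in any replicate and 2.57% in all 3. The Input comparison called 7 to 9 members over the settings run, not always the same, beside 11582 of 12359 genes in the main fit. NSUN7 and TRDMT1 dropped out in some, and NSUN5 entered in others. It was higher with library size scaling alone (edgeR adjusted p = 0.0029), RLE scaling (0.042) and K562 Input replicates 1 and 2 summed (0.030). It was also called higher without mESC Input replicate 1 (0.025) or K562 Input replicate 1 (0.038). Without a length offset NSUN5 was called lower (-0.43, adjusted p = 8.2e-07).

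Values that changed sign, all of them uncalled except those of the Input comparison, were as follows. With library size scaling alone Nsun3 in mESC was 0.63, NSUN5 in K562 0.18, and the differences of NSUN6 and NSUN7 were -0.059 and -0.074. With RLE scaling NSUN5 was 0.089 and the differences -0.18 and -0.21, and with DESeq2 0.088, -0.18 and -0.17. With the GC correction ALYREF in K562 was -0.15 and the differences -0.27 and -0.067. Leave-one-out ranges that crossed 0 were -0.43 to 0.48 for NSUN5 in K562, and -0.31 to 0.47 for NSUN6 and -0.68 to 0.85 for NSUN7 in the difference. In the Input comparison without a length offset NSUN5 was -0.43 and ALYREF -0.73, and with gene span NSUN2 was 1.47. The causes were not tested, except that an offset changes a value by the ratio of the lengths.

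Whether the replicate numbers pair the libraries could not be decided. Same-numbered IP and Input deviations correlated at only 0.0045 to 0.039, but counting error in the IP libraries lowers such values. With the replicate block 8 members were called in mESC (Trdmt1 lost, adjusted p = 0.066), 3 in K562 (NSUN4 lost, adjusted p = 0.055), 5 in the difference and 8 in the Input comparison. Called among all genes were 15435 of 20244, 3996 of 14522, 4537 of 13531 and 11548 of 12359, in that order. Each K562 IP library, and mESC IP replicates 2 and 3, correlated best with the Input of their own number. For mESC IP replicate 1 the value was 0.0070, against 0.026 with Input replicate 3. Summing K562 Input replicates 1 and 2 gave 4, 5 and 9 in the comparisons that use them. Called among all genes there were 4440 of 14522, 4281 of 13531 and 11469 of 12359. Depth limited NSUN3, NSUN5, TRDMT1 and ALYREF in K562, at 3 to 8 IP counts each.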
